A study of Homo sapiens with 14 samples.

Results

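KMT2D binding was described at a stretch of the long arm of chromosome 11 (11q22) that carries YAP1, the inhibitor of apoptosis genes BIRC3 and BIRC2, and 5 matrix metalloproteinase genes, MMP7, MMP10, MMP1, MMP3 and MMP13. The members were the KMT2D ChIP-seq peaks of chromosome 11 with a summit from 95.5 to 106.3 Mb (GRCh37), and they numbered 70 of the 13808 peaks in the list (0.507%). The window had been selected on the raised local background of its peaks in these same data, so that the background, and every other value of the same library, is given as a description. The study asked how loss of the histone methyltransferase KMT2D changes head and neck squamous cell carcinoma when glycolysis is blocked, and its ChIP-seq samples came from SCC23, an established cell line of that cancer. All 14 samples were labelled as low glucose, stated as 6 hours without glucose, with KMT2D and an input from wild-type cells (KMT2D-WT) and, from both KMT2D-WT and knockout (KMT2D-KO) cells, total H3 and the marks H3K4me1, H3K27ac, H3K4me3, H3K27me3 and H3K9me3. KMT2D-KO cells were sorted, without a stated single clone, after transfection of Cas9 with a guide against KMT2D. A guide against LacZ served as the control, but whether the cells of the KMT2D library had received it is not given in the sources used here. The peak list of the 1 KMT2D library in KMT2D-WT cells was used and the other 13 libraries were not analysed here. With 1 library and no replicates, no difference was tested, and the 95% intervals below cover counting error only. A peak list holds no level of any marker gene, so the labelled cell type could not be checked in it.

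YAP1 encodes a transcriptional coactivator that the Hippo kinases hold in the cytoplasm and that works in the nucleus with TEAD proteins. BIRC2 and BIRC3 encode cIAP1 and cIAP2, ubiquitin ligases that restrain cell death and control NF-kappaB signalling downstream of tumour necrosis factor receptors. The matrix metalloproteinases are secreted zinc enzymes that cut extracellular matrix, and their genes lie in a row at 11q22: MMP1 and MMP13 are collagenases, MMP3 and MMP10 are stromelysins and MMP7 is matrilysin. Several are classical targets of the AP-1 transcription factor. The locus is also known as a site of DNA amplification in some squamous carcinomas, with YAP1 and BIRC2 as its best-studied genes. KMT2D places H3K4me1 on enhancers, which often lie at a distance from the genes they act on.

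Reference promoters were at hand for 5 of the 8 genes (RefSeq, GRCh38.p14). They are shown for YAP1, BIRC3 and BIRC2 because a KMT2D peak lay over the start of each, by positions to the nearest kb, and for MMP7 and MMP10 because none did. Each sequence runs 5′ to 3′ on the strand of its gene and ends 1 base before the annotated start. It covers 250 bases for YAP1 (chr11:102110197-102110446, plus strand), BIRC3 (chr11:102317234-102317483, plus strand) and BIRC2 (chr11:102346964-102347213, plus strand, the upstream of its 2 annotated starts). It covers 100 bases for MMP7 (chr11:102530748-102530847, minus strand) and MMP10 (chr11:102780629-102780728, minus strand). These positions are GRCh38, whereas all peak positions are GRCh37, so no base of a peak was read. Capitals mark a TEAD motif in YAP1, NF-kappaB motifs in BIRC3 and BIRC2 and an AP-1 motif in MMP7 and MMP10.
YAP1: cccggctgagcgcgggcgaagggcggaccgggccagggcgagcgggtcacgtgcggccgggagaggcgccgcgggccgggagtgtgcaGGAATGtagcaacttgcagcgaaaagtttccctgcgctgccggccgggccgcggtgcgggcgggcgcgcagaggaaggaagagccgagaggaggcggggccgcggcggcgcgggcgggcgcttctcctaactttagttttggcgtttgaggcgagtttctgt
BIRC3: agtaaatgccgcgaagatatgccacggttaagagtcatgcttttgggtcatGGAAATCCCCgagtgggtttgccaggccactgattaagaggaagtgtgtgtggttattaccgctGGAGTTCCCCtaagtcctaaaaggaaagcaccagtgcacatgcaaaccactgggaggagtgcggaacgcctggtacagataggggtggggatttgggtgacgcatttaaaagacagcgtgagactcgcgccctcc
BIRC2: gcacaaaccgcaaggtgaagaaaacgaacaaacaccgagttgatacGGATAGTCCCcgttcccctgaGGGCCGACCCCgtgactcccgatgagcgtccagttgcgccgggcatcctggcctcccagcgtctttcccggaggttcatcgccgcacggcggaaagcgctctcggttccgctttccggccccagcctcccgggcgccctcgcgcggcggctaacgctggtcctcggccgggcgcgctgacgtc
MMP7: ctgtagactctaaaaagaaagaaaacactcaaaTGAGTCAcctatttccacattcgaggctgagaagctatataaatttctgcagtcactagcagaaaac
MMP10: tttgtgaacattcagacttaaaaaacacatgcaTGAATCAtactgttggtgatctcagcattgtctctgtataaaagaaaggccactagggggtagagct

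The AP-1 motif (TGANTCA on either strand) began 67 bases before the start of both MMP7 and MMP10 and was present in 7.71% of 35116 RefSeq promoters of 300 bases. The TEAD motif (GGAATG on either strand) began 162 bases before the start of YAP1 and was present in 14% of the promoters. Only matches upstream of a start are given. The NF-kappaB motif, GGG and CC separated by 5 bases on either strand, began 199 and 135 bases before the start of BIRC3. In BIRC2 it began 204, 183 and 182 bases before the upstream start, the last pair overlapping. Before the other annotated start of BIRC2, whose sequence is not shown, it began at 120 and 110 bases. It was present in 58.7% of the promoters, so its presence separates few genes from the rest. These matches describe letters in the reference and no binding of a factor.

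Peaks are given below by the number of ChIP fragments over the summit and the number that the local background gives at the depth of the ChIP library. Both were rebuilt from the deposited fold enrichment and p-value. The local background is the highest of several counts of control fragments around the summit, in windows of the summit itself, 1 kb and 10 kb, and is never below the genome-wide level of 2.88 fragments. The deposited fold enrichment divides the scaled ChIP signal by this background after adding 1 to each. The ratio without that addition is given with a 95% interval that counts both ChIP and control fragments. Gene positions are to the nearest kb.

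YAP1, on the plus strand at 101.981 to 102.104 Mb, had a broad peak over its start (chromosome 11, 101980483 to 101982982, 2500 bp), with the summit 1 kb inside the gene. It held 98 fragments over the summit where the local background gave 10.6. Its fold enrichment was 7.61 and its ratio 9.24 (95% interval 5.78 to 15.4). A further peak lay in the gene body 68 kb from the start (102048849 to 102049328), with 109 fragments against 20.7 and a ratio of 5.26 (3.66 to 7.67). The start therefore had fewer fragments than the internal peak over a lower background, and the intervals of the 2 ratios overlapped.

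The 84 kb between YAP1 and BIRC3, in which GENCODE v44 (GRCh38) places no other protein-coding gene, held 5 peaks. The highest fold enrichment of the whole window was found there, 146 kb from the start of YAP1 and past its end (102126877 to 102127417). That peak had 154 fragments against 14.5, a fold enrichment of 9.17 and a ratio of 10.7 (7.17 to 16.3). A 1263 bp peak 158 kb from the YAP1 start had 71 fragments and a ratio of 6.04 (4.57 to 7.89), resting on 244 control fragments in 10 kb. The other 3 peaks, at 135, 160 and 196 kb from the YAP1 start, had 60, 53 and 96 fragments. The q-value did not exceed 0.05 at any of the 5. Such a peak cannot be assigned to YAP1 or BIRC3 from its position.

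BIRC3 (plus strand, 102.188 to 102.21 Mb) had a peak over its start (102187921 to 102188448) with 90 fragments against 16.4, a fold enrichment of 4.87 and a ratio of 5.49 (3.66 to 8.41). A weaker peak lay 7 kb into the gene with 58 fragments against 20.2 and a ratio of 2.87 (1.89 to 4.37). BIRC2 (plus strand, 102.218 to 102.249 Mb) had a 1711 bp peak (102216554 to 102218264) whose summit lay 1 kb before the start and whose end passed over it. This peak held 98 fragments against 14.5, with a fold enrichment of 5.89 and a ratio of 6.78 (4.46 to 10.6). The body of BIRC2 held no summit. Because gene positions are rounded to the nearest kb, overlap of a peak with the start of BIRC3 or BIRC2 is uncertain. The ratio at the starts of YAP1, BIRC2 and BIRC3 thus ran from 9.24 to 6.78 and 5.49 with overlapping intervals, and their order was not resolved at this depth.

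Past BIRC2, the 142 kb up to MMP7 held 3 weak peaks, with TMEM123 as the gene between them in the reference order. They had 58, 36 and 36 fragments, and for 1 of the 3 the q-value was below 0.05. All the following metalloproteinase genes are on the minus strand, so that positions beyond their higher coordinate are upstream. None of the 5 metalloproteinase genes had a summit in its body or a peak over its start.

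MMP7 (102.391 to 102.402 Mb) had no peak within 10 kb. Its nearest peak lay 33 kb upstream of its start (102434915 to 102435247), with 101 fragments against 15.8 and a ratio of 6.41 (2.84 to 17.9). The reference order places MMP20, MMP27 and MMP8 between MMP7 and MMP10, and the 239 kb of that stretch held 4 peaks. Of these, the peak at 102631094 to 102631471 had 138 fragments against 26.3 and a ratio of 5.25 (2.77 to 11.2). It lay 20 kb from the start of MMP10, past the end of that gene. Its 10 control fragments over the summit, shared with 1 peak after MMP13, were the highest local background of the window. Nearer to MMP10 and also past its end, 17 kb from its start, lay a weaker peak (102634198 to 102634513). This one had 45 fragments against 13.5, a ratio of 3.32 (2.37 to 4.56) and a q-value of 0.0176.

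MMP10 (102.641 to 102.651 Mb) also had the weakest peak of the window by fold enrichment, 4 kb upstream of its start (102654522 to 102654803). There 45 fragments stood against 21.0, the fold enrichment was 2.01, the q-value was 1 and the ratio of 2.14 had an interval (0.999 to 5.26) that included no enrichment. This was also the only summit within 10 kb of MMP1 (102.661 to 102.669 Mb), 14 kb from its start and past its end. MMP1 had no peak in the 37 kb that separate it from MMP3.

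MMP3 (102.706 to 102.714 Mb) had a row of 4 peaks upstream of its start, 3, 6, 8 and 11 kb away, within 8.1 kb (102717115 to 102725195). From the nearest outwards they held 84, 183, 128 and 153 fragments over the summit, against 18.4, 18.4, 17.3 and 15.8 from the local background. The peak 6 kb upstream (102719873 to 102720642) had more fragments than any other in the window. Its fold enrichment was 8.83 and its ratio 9.95 (4.73 to 25.1). The ratio was 4.57 (2.12 to 11.7) for the peak 3 kb upstream, 7.38 (5.06 to 11) at 8 kb and 9.70 (4.36 to 26.9) at 11 kb. For 3 of the 4 the background was 6 or 7 control fragments at the summit, hence the wide intervals. The highest q-value of the 4 was 3.97e-08. The reference order places MMP12 next, between MMP3 and MMP13, and the distance of the row from MMP12 was not measured here.

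MMP13 (102.814 to 102.827 Mb) had its nearest peak 19 kb upstream (102845757 to 102845977), with 83 fragments against 21.2 and a ratio of 3.91 (2.68 to 5.78). Another lay 40 kb upstream (102866931 to 102867452), with 121 fragments against 15.8 and a ratio of 7.68 (3.43 to 21.3). Within 10 kb of the gene body a summit was found for 6 of the 8 genes, and for 5 at a q-value of at most 0.05. MMP1 was counted only through the weakest peak of the window, which it shares with MMP10. A peak lay over the start, as rounded, in 3 of the 8, the genes that lie to the left of MMP7 on the map of peaks and genes. The share of all genes with such a peak was not measured, so nothing is read from these counts. From the start of YAP1 to the end of MMP13 (0.846 Mb) there were 22 peaks, 4 inside a member gene and 18 between them. A q-value below 0.05 was reached at 19 of these 22 and at 50 of the 70 in the window, and the share over the 13136 peaks on the autosomes and X was 58.8%.

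**Figure D1:**
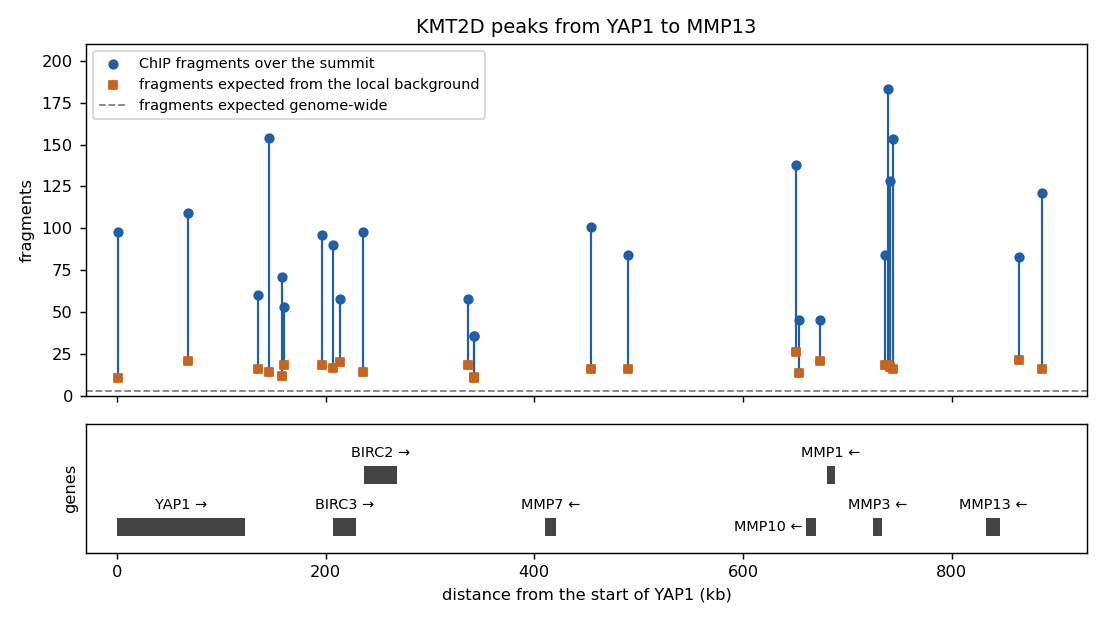
ChIP fragments over the summit of each KMT2D peak from YAP1 to 40 kb upstream of MMP13 (circles) and fragments expected from its local background (squares), with the genome-wide expectation of 2.88 fragments (dashed line), by distance in kb from the start of YAP1. Bars below are the 8 genes with arrows for strand, and the tallest point, 183 fragments, is in the row of 4 peaks upstream of MMP3.

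The local background was high at every listed peak along the row of genes. At the 22 peaks from YAP1 to MMP13 its median was 5.58 times the genome-wide level, with a range of 3.60 to 9.13. It reached 2 times that level at 68 of the 70 peaks of the window, for which the window was selected, and at 15.2% of all peaks on the autosomes and X. None of the 70 peaks was at the genome-wide level, whereas 220 of the 670 other peaks of chromosome 11 were. At the edges, the last peak below the window (94884434 to 94884619) had a background 1.09 times the genome-wide level and the first inside it 2.61 times (95523066 to 95523294). The last peak inside (106294893 to 106295149) had 3.01 times and the first above it (107711490 to 107711954) 1.00 times. Raised backgrounds were not confined to the window. In the 10.8 Mb next below it, 20 of 49 peaks reached 2 times the genome-wide level and 1 was at that level. In the 10.8 Mb next above it, 6 of 7 peaks were at the genome-wide level.

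Counts over 10 kb gave the most precise view of the control, since they rest on many fragments. The genome-wide level corresponds to 59.7 control fragments per 10 kb. The 10 kb count set the background at 21 peaks of the window, and it is a highest value, so these peaks leave out places where a shorter window was higher. Proceeding along the chromosome, the count was 156, 155, 177 and 203 at the first 4 of these peaks, about 6 Mb before YAP1. It then stood at 131, 92, 139 and 116 at the next 4, from 3.8 to 1.7 Mb before YAP1. The count of 92 gave 1.54 times the genome-wide level (1.24 to 1.89). From 1.2 Mb before YAP1 to the end of the window it lay between 172 and 281 at 13 peaks, and the lowest bound of their intervals was 2.47 times the genome-wide level.

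Within the gene span the 10 kb count was 244 between YAP1 and BIRC3, which is 4.09 times the genome-wide level (3.59 to 4.63). It was 215 between BIRC2 and MMP7 (3.60 times, 3.13 to 4.11) and 281 near MMP10 (4.70 times, 4.17 to 5.29). The intervals around YAP1 and near MMP10 overlapped, and that near MMP10 lay above the interval between BIRC2 and MMP7. These are 3 places of 1 control library.

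**Figure D2:**
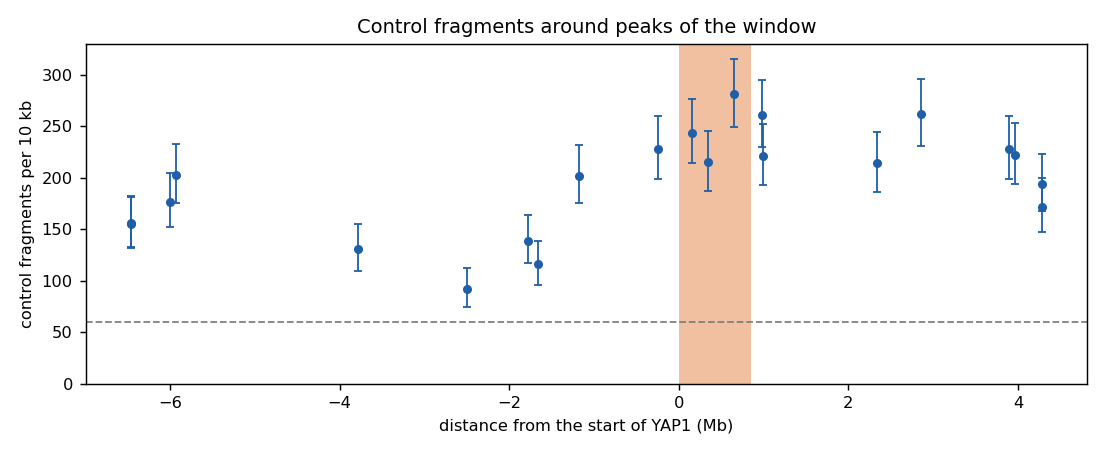
Control fragments per 10 kb at the 21 window peaks whose background came from a 10 kb count, with 95% Poisson intervals, by distance in Mb from the start of YAP1. The dashed line is the genome-wide level of 59.7, the shaded band runs from YAP1 to MMP13, and the counts fall to 92 before rising to between 172 and 281.

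**Figure D3:**
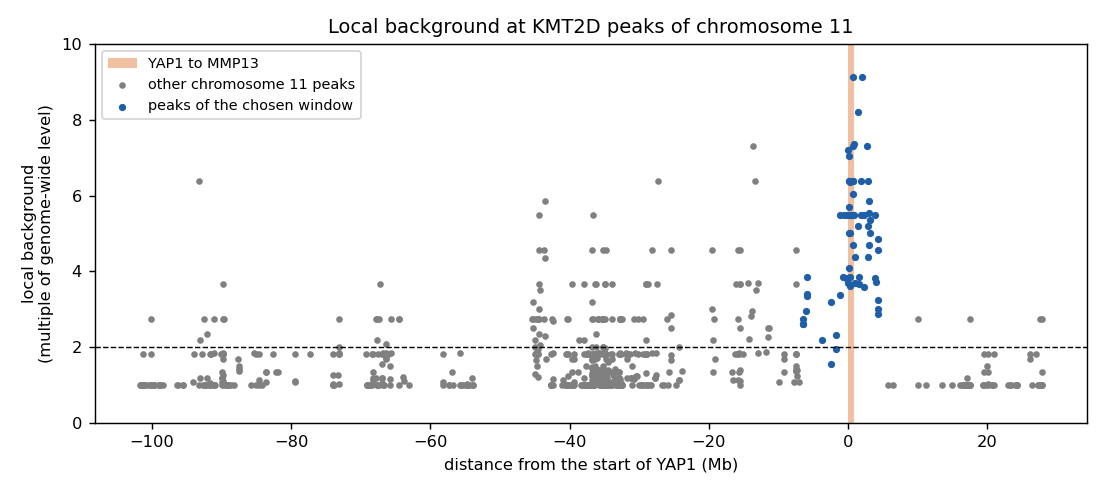
Local background at each KMT2D peak of chromosome 11 as a multiple of the genome-wide level, by distance in Mb from the start of YAP1, with the 70 window peaks coloured and a dashed line at 2 times. Every window peak from 1.2 Mb before YAP1 onwards stands above the line. In the 10.8 Mb below the window 20 of the 49 peaks reach it as well. Of the 7 peaks in the 10.8 Mb above the window, 6 are at the genome-wide level.

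Over this background the peaks carried many ChIP fragments, with deposited fold enrichments near those of other peaks. The median was 60 fragments in the window (95% interval 53 to 69), 87 from YAP1 to MMP13 (58 to 109) and 26 at the other peaks of chromosome 11 (25 to 28). At least 73 fragments were counted at 25 of the 70 window peaks, 13 of them from YAP1 to MMP13, beside 3.97% of all peaks on the autosomes and X. The window was selected on a quantity that raises both counts, so nothing is read from this share. Median fold enrichment was 3.86 in the window (3.12 to 4.69), 4.75 from YAP1 to MMP13 (2.95 to 5.89) and 4.07 at the other peaks of chromosome 11 (3.93 to 4.14). The 1 added above and below lowers this measure more where the background is low. The median local background was 14.5 fragments in the window and 3.42 at the other peaks of chromosome 11. The closeness therefore holds for the deposited measure only, and no median of the ratio without that addition is given. None of the 70 peaks reached the 10.3 of the 500 highest fold enrichments.

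The choice of background moved the order of single peaks. The peak 6 kb upstream of MMP3 ranked 48 of 13136 by fragments and 932 by deposited fold enrichment, which was 8.83 over the local and 33.7 over the genome-wide background. The peak past the end of YAP1 with 154 fragments ranked 60 by fragments and 809 by fold enrichment. The peak over the start of YAP1 ranked 177 by fragments and 1433 by fold enrichment, and that over the start of BIRC3 ranked 243 and 4340. Over the genome-wide background the median fold was 11.4 in the window and 5.20 at the other peaks of chromosome 11. That fold depends on the fragment count alone. At the median local background of the window 32 fragments were needed for listing, and 66.2% of peaks outside the window had fewer. The window was selected on that background, so nothing is read from this difference.

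**Figure D4:**
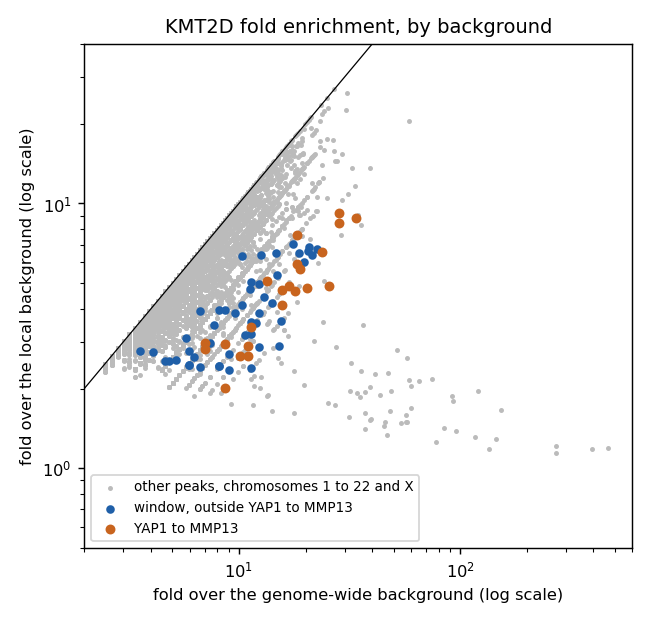
Fold enrichment over the local background against fold enrichment over the genome-wide background, both on log scales and with 1 added above and below, for each KMT2D peak on the autosomes and X. The line marks equal values, on which a peak at the genome-wide background falls, and the window peaks all lie below it, with the peak upstream of MMP3 at 33.7 and 8.83.

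A raised background also sets how strong a peak must be to enter the list. At the genome-wide background 11 fragments were enough for a p-value below 0.01, whereas at 6 control fragments over the summit 32 were needed and at 10 control fragments 48. Where a gene of the row had no peak, the list holds no background, so the count that a site there needed is not known. Weak sites there may have gone unlisted at this depth.

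Peaks were denser around the genes than in the rest of the window. There were 26.0 per Mb from YAP1 to MMP13 (95% Poisson interval 16.3 to 39.4), 2.78 per Mb (1.65 to 4.39) in the window before YAP1 and 8.64 per Mb (5.83 to 12.3) after MMP13. The other peaks of chromosome 11 numbered 5.64 per Mb (5.22 to 6.08) over the length that peaks covered. That average hides clusters, and peaks were denser still in places, as between the summits at 65149955 and 65819856. The density from YAP1 to MMP13 is thus not particular to it, and the intervals do not cover such clustering. The 10.8 Mb next above the window held 7 peaks, or 0.648 per Mb (0.261 to 1.34), and the 10.8 Mb next below it 49 peaks, or 4.54 per Mb (3.36 to 6.00). The longest gap between summits from YAP1 to MMP13 was 161 kb and began 489 kb from the start of YAP1, in the stretch of MMP20, MMP27 and MMP8. Peaks wider than 1000 bp numbered 4 in the window (5.71%), close to the 5.63% of those on the autosomes and X. All 4 lay from YAP1 to MMP13, at the starts of YAP1 and BIRC2, between YAP1 and BIRC3 and upstream of MMP3. With so few wide peaks, nothing is read from where they lay.

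Elsewhere in the window, 18 peaks preceded YAP1 and 30 followed MMP13. Among the former, the peak at 101317107 to 101317464, 664 kb before the start of YAP1, had 94 fragments against 11.1 and a fold enrichment of 7.05, the fifth highest of the window. The peak at 101881575 to 101882281, 99 kb before YAP1, had 115 fragments against 15.8. After MMP13, the highest fold enrichment was 6.84 (106269790 to 106270079), with 111 fragments against 13.98, in a group of 5 peaks from 106239440 to 106295149 at the upper edge. High backgrounds also occurred there, with 10 control fragments over the summit at 103947183 to 103947472 (81 fragments, fold enrichment 2.89) and 9 at 103403072 to 103403452 (60 fragments, fold enrichment 2.38).

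The stretch without any peak under 2 times the genome-wide background held 58 peaks here (100799238 to 106295149). The next by number of peaks was on chromosome 1 (228745144 to 228782329), with 27 peaks in 0.04 Mb. After it came the longest such stretch of chromosome 20 (32377273 to 33851458), with 26 peaks in 1.47 Mb. The chromosome 20 stretch had a median background of 3.65 times the genome-wide level and a median fold enrichment of 3.48. The corresponding medians over the 58 peaks here were 5.48 and 3.96. These stretches were chosen for their background, so the values are given side by side with no test.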

How the data were processed

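Chromatin of glucose-deprived KMT2D-WT SCC23 cells was immunoprecipitated with a KMT2D antibody, and peaks of that 1 library were analysed. Per the study's methods and the submitters' processing notes, Bowtie2 placed the reads on hg19 (GRCh37), and the authors ran MACS2 on the reads that mapped to 1 place, with a p-value threshold of 0.01. The control is not named for peak calling in the sources used here. The deposited fold enrichment is a ratio of scaled ChIP to local background, and the deposited −log10 p-value and −log10 q-value belong to the summit. The deposited score is 10 times the −log10 p-value, and the list also holds positions.

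ChIP fragments and background were rebuilt from fold enrichment and p-value with the formulas of MACS2, which was tested on simulated data. ChIP fragments were scaled by 0.381, with 1.10 scaled fragments genome-wide. Whole fragments were imposed at every peak, and the largest gap then left in −log10 p was 0.000636. Local backgrounds off whole numbers fell on steps of a 183.4 bp fragment in 10 kb (0.0183 scaled fragments), within 0.0003, for 99.9% of those below 6. A step that fits 1 kb and 10 kb counts was read as 1 kb, which gives the wider interval. Total library depths were not analysed here, but that scale makes the ChIP library 2.63 times as deep as the control.

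The members, gene lists and tests were chosen with earlier results of these data known. Gene positions came with that choice, to the nearest kb, and no GRCh37 annotation was at hand, so exons, introns and UTRs were not assigned. Lengths of the 8 genes differed by at most 0.76 kb and spacings by at most 1.4 kb from GENCODE v44 on GRCh38, which was used only for strand and gene order. The named items were the 8 genes with their peaks within 10 kb or their nearest peak, and the 5 window peaks highest in fragments, fold enrichment and background. Intervals were exact Poisson for counts, conditional Clopper-Pearson for ratios and binomial order statistics for medians, at 95%. A peak was placed by its summit. Alternatives were stricter q-values, overlap in place of summits, merged peaks, other background thresholds and other distances from genes. Scripts ran in Python 3.11.15 with scipy 1.17.1 for the intervals, pandas 2.3.3 and numpy 2.4.6 for the tables, and matplotlib 3.10.9 for the plots.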

Additional observations from a re-analysis of the deposited data

How the results depend on the processing

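Of 19 alternatives, 13 stayed within the range set for their result and 6 moved. All results were counts or medians without a direction, so a change of direction could not be tested. The range was wide, as 50 window peaks at a q-value of at most 0.05, in place of 70, counted as within it. The 70 peaks of the window became 46 at a q-value of at most 0.01, by construction. At a q-value of at most 0.05 the median fold enrichment of the window was 4.74 and the median number of fragments 73, against 3.86 and 60. Median fold enrichment was 11.4 over the genome-wide background. The median local background was 3.40 times the genome-wide level at the 21 peaks set by the 10 kb window, against 5.02. Counting summits in the gene body only, 2 of the 8 genes had a peak, against 6 within 10 kb and 5 of them at a q-value of at most 0.05. No paired analysis was possible because 1 library was analysed. With backgrounds that rest on 3 to 10 control fragments at many summits, ratios of single peaks are known only within wide intervals.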
